A study of Mus musculus with 8 samples.

Results

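Heat shock proteins and the DnaJ proteins that work with them were followed in C low-threshold mechanoreceptors (C-LTMRs), unmyelinated touch neurons of the dorsal root ganglia. The set took in the genes whose Ensembl mouse symbol begins with Hsp or Dnaj followed by a family letter or number. After 15 pseudogenes among 90 matching symbols were set aside, 75 of the 55573 counted genes belonged to it. They were 28 Dnajc, 13 Dnajb, 4 Dnaja, 13 Hspa, 8 Hspb and 3 Hsp90 genes, with a few smaller families. The symbol rule also caught 3 genes that are not chaperones, namely Hspg2 (the matrix proteoglycan perlecan), Hspb11 (a subunit of the intraflagellar transport machinery) and Hspbap1 (a protein that binds Hspb1). The cells were sorted by GFP from adult mice of the wild type (WT) or with a knockout of bhlha9 (KO), which encodes a bHLH transcription factor. There were 4 groups, male WT, male KO, female WT and female KO, with 2 libraries each, which the submitters call biological replicates. All groups share the sorting and the amplification of the RNA, and the labels used here do not name the transgene behind the GFP, the strain, the exact age or the number of mice behind a library. They describe no heat, injury or other stress given to the animals.

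Chaperones of the Hsp70 family, the Hspa genes, hold unfolded stretches of other proteins in cycles of ATP hydrolysis. DnaJ proteins deliver the clients and start the hydrolysis, nucleotide exchange factors release them, and Hsp90 takes over many signalling proteins for their last steps of folding. Cells carry constitutive forms at all times, while heat-inducible forms such as Hspa1a are switched on by the heat shock factor Hsf1 when unfolded proteins accumulate. Separate sets work in the endoplasmic reticulum (ER) and in mitochondria. Sensory neurons are known to carry the small heat shock protein Hspb1 without any stress.

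The libraries held between 50919885 and 71956309 counts, given below as CPM, the counts relative to the size of the library after TMM scaling. Bhlha9 stood at 127 to 161 CPM in the 4 WT libraries and at 0.156 to 0.469 CPM in the 4 KO libraries, as the labels state. All 8 C-LTMR markers listed were detected in every library, led by Th at 2975 and 4138 CPM in the male KO libraries and 4851 and 4481 CPM in male WT. Of these 8, 0 had a positive log2 fold change in males (median -0.38), where 51.9% of all tested genes had one. All 8 had one in females (median 0.22), where 49.0% of all tested genes did. Without overlap, 6 were below WT in males, beside 14.5% of all genes, and 2 above WT in females, beside 14.2%. The part of these markers in the values below was not tested. The library male_KO1 stood apart in its markers of myelinated afferents, 9 genes that summed to 5919 and 2018 CPM in male_KO1 and male_KO2 against 996 to 1425 CPM in the other 6 libraries. Markers of non-peptidergic nociceptors summed to 297 CPM in male_KO2 against 15.8 to 102 CPM elsewhere, and those of peptidergic nociceptors ran from 507 CPM in female_KO2 to 1931 in female_WT2 and 2080 in male_KO2. Where 1 library carried much of a fold change printed for a member named by rule, the value without it is given too. The 75 genes together took between 0.925% and 1.06% of the counts of a library. In RNA pooled from many sorted cells, fewer cells of a type and less RNA per cell cannot be told apart.

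Heat shock factor binds repeats of the unit GAA and its complement TTC, known as the heat shock element, and ER chaperones are known for another motif, the ER stress response element. Promoter sequences from RefSeq (GRCm38.p6) were on hand for 61 of the 75 genes, and the 250 bases before each start were searched on both strands. A pair of facing units, spelled GAANNTTC or TTCNNGAA, was present in 6 of the 7 inducible members with a promoter entry, in 1 of 6 constitutive cytosolic members and in 14 of all 61 genes. Some genes have several promoter entries, and counted by entry 16 of the members' 78 hold such a pair, beside 12.8% of 32851 mouse promoters of the same length. The 250 bases before the start of Hspa1a, on the minus strand at chr17:34972157-34972406, are shown because this gene is the best known target of heat shock factor, with the pair of units in capitals.
Hspa1a promoter: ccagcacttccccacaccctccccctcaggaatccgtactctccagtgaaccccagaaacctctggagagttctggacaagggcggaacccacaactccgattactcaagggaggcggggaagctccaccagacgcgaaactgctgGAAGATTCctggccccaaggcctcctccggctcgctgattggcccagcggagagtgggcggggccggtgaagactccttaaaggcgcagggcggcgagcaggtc
The same window of the neighbouring Hspa1b is identical at 247 of 250 bases. The 30 bases around each pair in the other inducible members show how the same 6 fixed letters sit in unlike surroundings.
Hspb1, chr5:135887791-135887820: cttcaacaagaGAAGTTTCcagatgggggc
Hspb1, chr5:135887811-135887840: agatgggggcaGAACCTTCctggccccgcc
Dnaja1, chr4:40722333-40722362: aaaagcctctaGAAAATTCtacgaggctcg
Dnajb4, chr3:152193846-152193875, minus strand: gttcgttcgttcgctgTTCTAGAAagtaca
Hsph1, chr5:149636351-149636380, minus strand: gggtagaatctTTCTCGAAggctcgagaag
Dnajb1 had no pair in its window. The window gives no answer for Hsp90aa1, Hsp90ab1 and Hspa8, for which no promoter entry was on hand. Longer runs, with 3 alternating units, were found in 0.466% of all promoters and in 3 members, the constitutive Dnajb6 and the mitochondrial pair Hspd1 and Hspe1. Hspd1 and Hspe1 lie head to head on chromosome 1 and their windows share 215 bases, so the same run appears in both.
Dnajb6, chr5:29735844-29735873: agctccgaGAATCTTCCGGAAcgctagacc
Hspd1 and Hspe1, chr1:55088053-55088082, read towards Hspe1: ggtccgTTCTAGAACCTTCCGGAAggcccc
The ER element, searched as CCAAT and CCACG with 9 bases of any kind between them, was present in 0.113% of all promoters and in 3 members, all of which work in the ER. It overlaps the CCAAT box, which alone is found in 33.8% of promoters. Hsp90b1 holds 2 matches, of which 1 is shown, and the other lies nearer the start in reverse orientation (chr10:86705527-86705556).
Hspa5, chr2:34772020-34772049: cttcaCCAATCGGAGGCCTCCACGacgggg
Dnajc3, chr14:118937822-118937851: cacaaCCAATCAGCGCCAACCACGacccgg
Hsp90b1, chr10:86705632-86705661, minus strand: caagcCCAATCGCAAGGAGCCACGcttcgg
A match is a run of letters and says nothing about which factor was bound in these cells.

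A constitutive chaperone, Hsp90ab1, dominated the transcripts of the family in WT neurons. Levels between genes are compared per kilobase of exon (CPM per kb, mean of the 4 WT libraries). Hsp90ab1, the constitutive cytosolic Hsp90, led with 1484 ± 145 CPM per kb (SD, n = 4) and ranked 24 among the 22013 genes that could be tested. It alone made up between 42.3% and 47.0% of all counts of the 75 genes in a library. Next came the small heat shock proteins Hspb1 at 306 ± 64.6 and Hspb8 at 193 ± 8.56 CPM per kb, the latter a partner of Bag3 in clearing misfolded proteins. Hspbp1, a nucleotide exchange factor of Hsp70, stood at 151 ± 16.2, Hsp90aa1, the inducible cytosolic Hsp90, at 147 ± 26.4, and Hspa8, the constitutive Hsp70, at 108 ± 12.6 CPM per kb. The ER chaperones Hspa5 (BiP) and Hsp90b1 (Grp94) closed the first 8 with 73.7 ± 13.9 and 53.5 ± 1.56 CPM per kb. The order of Hspbp1 and Hsp90aa1 lay within their spread. Counts on pseudogene copies of Hspb1 and Hspd1, described below, were not added here, and adding them could change the order. The classical heat-inducible Hsp70 genes were low, with Hspa1a at 5.06 ± 2.15 and Hspa1b at 2.76 ± 1.69 CPM per kb. Hspb1 and Hsp90aa1 were thus the only members of the inducible list among the 8 highest. Hspa1a and Hspa1b are near-identical, as described below, and how far reads that match both are missing from their levels was not tested.

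Of the 75 genes, 64 were detected in all 8 libraries, 59 had a mean of at least 5 CPM and 33 of at least 50 CPM. Not detected were Hspb3, Dnajb7, Dnajb8, Dnajb13 and Dnajc5g, with 0 counts in all 8 libraries, where 3 counts would equal between 0.0421 and 0.0587 CPM. The small heat shock protein Hspb7, known from heart and muscle, had 2 counts in 1 library. These 6 could not be tested, which leaves 69 tested members. Among the 59 with at least 5 CPM the median coefficient of variation over the 8 libraries was 20.3%, against 24.1% for the 11857 genes at that level. The steadiest was Dnajc7, a co-chaperone that links Hsp70 and Hsp90, with 6.81%, followed by Hsp90ab1 with 7.10% and Hspb8 with 7.69%. The most variable were Hspa1b with 70.3%, Hspa1a with 43.4% and Hspa12a with 41.3%.

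No member passed 5% in KO against WT, in either sex. With edgeR's quasi-likelihood test and Benjamini-Hochberg adjustment over all 22013 tested genes, 0 of 69 members passed in males and 0 of 69 in females, where 1 gene in all (0.00454%) passed in each sex. DESeq2 called 0 members too, against 1.08% of genes in males and 1.13% in females. At an unadjusted p below 0.05, 3 members were found in males (Hspbap1, Hspa12a and Dnajb14) against 3.5% of all genes, and 2 in females (Hspa14 and Hspa2) against 3.81%. The edgeR adjusted p of each member was 1 in both sexes. The members' median log2 fold change was 0.10 in males, where 45 of 69 were positive, and 0.04 in females, where 39 of 69 were, beside medians of 0.02 and 0.00 over all tested genes. The values below are therefore descriptions of each library.

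Among the 8 inducible members, Hspa1a, the textbook marker of the heat shock response, separated KO from WT in opposite directions in the sexes. Hspa1a (ENSMUSG00000091971, chr17:34969190-34972156, minus strand) stood at 11.4 and 9.22 CPM in male WT, 14.6 and 24.9 in male KO, 15.7 and 23.7 in female WT and 6.07 and 15.1 in female KO. KO libraries were above WT in males and below WT in females, with no overlap in either sex. Its log2 fold change was 0.93 ± 0.52 (SE) in males and -0.89 ± 0.52 in females (0.47 without male_KO2 and -0.38 without female_KO1). The difference between the sexes was 1.83 ± 0.74, with an adjusted p of 0.98 by edgeR. The near-identical Hspa1b followed at 2.50 and 8.64 CPM in male WT, 4.07 and 10.8 in male KO, 6.03 and 13.8 in female WT and 2.74 and 19.6 in female KO. There the 2 libraries of a group differed more than the groups did.

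Immediate early genes, which neurons switch on within minutes of strong stimulation, were read beside Hspa1a. Their 24 listed members summed to 1646 and 1100.1 CPM in male WT, 2407 and 2087 in male KO, 1472 and 2237 in female WT and 1251 and 1821 in female KO. Of the 23 tested, 18 were positive in males (median log2 fold change 0.67) and 19 negative in females (median -0.36), while Npas4 was at or near 0 throughout. DESeq2 called Ier2, Jun and Klf6 in males and Ier2 in females, while edgeR called 0 of the 23 in either sex. Ier2 stood at 19.4 and 11.3 CPM in male WT, 60.4 and 74.7 in male KO, 48.0 and 54.6 in female WT and 18.6 and 24.3 in female KO. Markers of other cells in the ganglion were read in the same way. Of 8 markers of peptidergic nociceptors, 7 were positive in males (median 1.44) and 7 negative in females (median -1.56), with sums of 697 and 752 CPM in male WT, 1502 and 2080.2 in male KO, 1203 and 1931 in female WT and 1565 and 507 in female KO. Their Calca, the precursor of the peptide CGRP, stood at 59.4 and 88.4 CPM in male WT, 578 and 909.9 in male KO, 350.5 and 852 in female WT and 712 and 5.94 in female KO, and Trpv1 was at 0 in male_WT1. Of 12 glial markers, 9 were positive in males (median 1.15) and 9 negative in females (median -0.45), while their sums, between 3407 and 6040 CPM, overlapped in both sexes. The C-LTMR markers ran the other way, with 8 of 8 negative in males and 8 of 8 positive in females. The part of the immediate early genes and of these cells in the Hspa1a values was not tested.

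**Figure D1:**
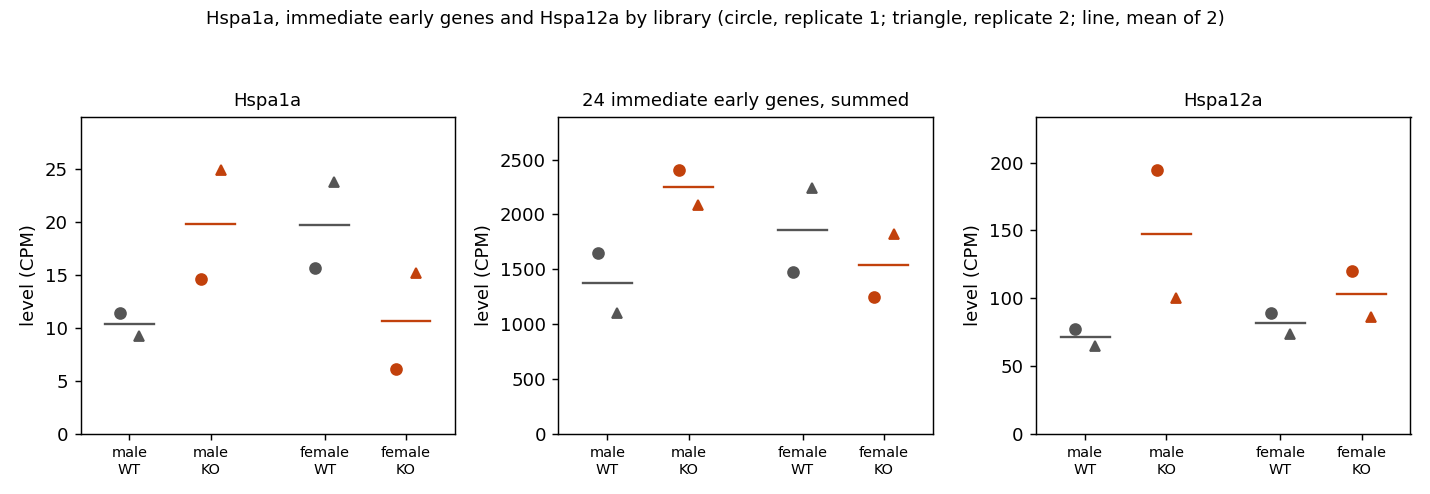
Level in CPM (vertical axes from 0) of Hspa1a, of the summed 24 immediate early genes and of Hspa12a in each library by sex and genotype, with circles for replicate 1, triangles for replicate 2 and lines for the mean of 2. Hspa1a is higher in both male KO libraries and lower in both female KO libraries than in WT of the same sex, and Hspa12a is highest in male_KO1 at 195 CPM.

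Of the other inducible members, Hsp90aa1, Hspb1 and Hsph1 stayed closer to WT than Hspa1a did. Hsp90aa1 stood at 590.0 and 503 CPM in male WT, 739.8 and 588 in male KO, 721 and 501 in female WT and 705 and 551 in female KO, with overlapping groups in both sexes. Hspb1, which binds unfolded proteins and actin, stood at 297 and 252 CPM in male WT, 318 and 259 in male KO, 409 and 304 in female WT and 253 and 332 in female KO. It was highest in female_WT1 and its groups overlapped in both sexes. Hsph1 (Hsp110), an exchange factor of Hsp70 that helps to pull apart aggregates, stood at 151 and 188 CPM in male WT, 131 and 143 in male KO, 127 and 104 in female WT and 151 and 112 in female KO. Both male KO libraries were below male WT, with a log2 fold change of -0.31 ± 0.22 (-0.17 without male_WT2), and the female groups overlapped.

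Among the inducible DnaJ proteins, Dnajb1, the main heat-inducible partner of Hsp70, stood at 120.2 and 164 CPM in male WT, 156 and 178 in male KO, 159 and 149 in female WT and 119 and 145 in female KO. The male groups overlapped and the female KO libraries were both below WT (-0.22 ± 0.21 on the log2 scale and -0.078 without female_KO1). Dnaja1, a farnesylated class A partner of Hspa8, stood at 149 and 173 CPM in male WT, 162 and 176 in male KO, 186 and 142 in female WT and 174 and 151 in female KO, with overlap in both sexes. Dnajb4, a relative of Dnajb1, stood at 24.0 and 20.6 CPM in male WT, 34.8 and 15.2 in male KO, 10.9 and 12.5 in female WT and 20.7 and 24.4 in female KO. Both female KO libraries were above both female WT libraries, by 0.94 ± 0.41 on the log2 scale, while in males the 2 KO libraries lay on either side of WT.

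Of the 8 inducible members, 7 had a positive log2 fold change in males (median 0.20) and 4 in females (median 0.01). Groups did not overlap for 2 of them in males, Hspa1a above and Hsph1 below WT, and for 3 in females, Dnajb4 above and Hspa1a and Dnajb1 below. Over all tested genes, KO libraries were above WT without overlap for 14.5% and below for 14.5% in males, and for 14.2% and 15.1% in females.

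The constitutive cytosolic members differed by at most 0.37 on the log2 scale between KO and WT in either sex. Hsp90ab1 stood at 4671 and 4070.4 CPM in male WT, 4409 and 4694 in male KO, 4955 and 4102 in female WT and 4829 and 4539 in female KO, a log2 fold change of 0.06 ± 0.16 in males and 0.05 ± 0.16 in females. Hspa8, which also uncoats clathrin vesicles at nerve terminals, stood at 506 and 514 CPM in male WT, 500.2 and 693 in male KO, 416 and 416 in female WT and 532 and 460.1 in female KO. Female KO libraries were both above the 2 female WT libraries, by 0.25 ± 0.19 on the log2 scale (0.15 without female_KO1), and the male groups overlapped because male_KO1 sat just below WT. Hspa4, the constitutive relative of Hsph1, stood at 78.0 and 74.9 CPM in male WT, 54.7 and 71.4 in male KO, 61.6 and 74.9 in female WT and 85.1 and 65.2 in female KO. Both male KO libraries were below male WT, with a log2 fold change of -0.28 ± 0.23 (-0.10 without male_KO1), and the female groups overlapped.

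Dnaja2, a class A partner of Hspa8, stood at 123 and 168 CPM in male WT, 129 and 196 in male KO, 156 and 148 in female WT and 107 and 167 in female KO, with overlap in both sexes. Dnajb2, a DnaJ protein enriched in neurons that steers clients to the proteasome, stood at 104 and 109.8 CPM in male WT, 91.1 and 82.6 in male KO, 67.9 and 84.0 in female WT and 85.2 and 111 in female KO. Its KO libraries were below WT in males (-0.30 ± 0.20 on the log2 scale) and above WT in females (0.37 ± 0.20, and 0.16 without female_KO2). Across the 9 constitutive members, log2 fold changes ranged from -0.30 to 0.30 in males and from -0.15 to 0.37 in females, with 7 of 9 positive in each sex and medians of 0.10 and 0.05.

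**Figure D2:**
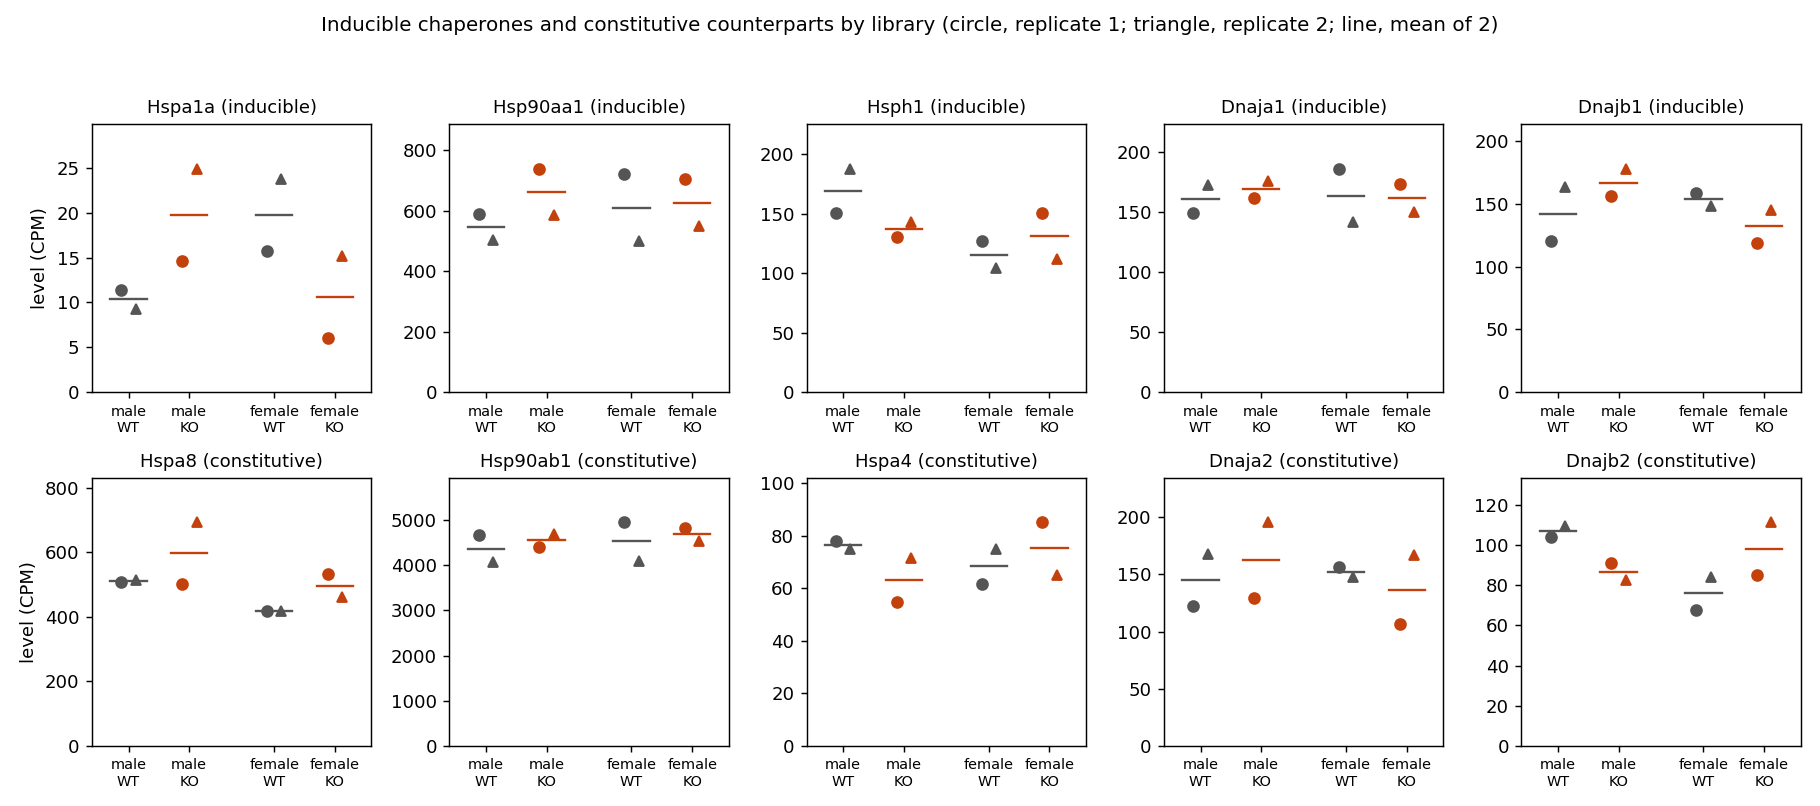
Level in CPM (vertical axes from 0) of 5 inducible members in the upper row and their constitutive counterparts in the lower row, by sex and genotype, with circles for replicate 1, triangles for replicate 2 and lines for the mean of 2. Hspa1a changes sides between the sexes, Hsp90ab1 stays between 4070 and 4955 CPM in all 8 libraries, and Hspa8 is at 416 CPM in both female WT libraries.

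The ratio of summed inducible to summed constitutive transcripts ran from 0.223 to 0.278 across the libraries. Such sums are carried by the most abundant members, as Hsp90ab1 alone held 42.3% to 47.0% of all member counts. The summed CPM of the 8 inducible members divided by that of the 9 constitutive members was 0.229 and 0.244 in male WT, 0.278 and 0.223 in male KO, 0.267 and 0.238 in female WT and 0.235 and 0.230 in female KO. The male KO libraries lay on either side of male WT and both female KO libraries lay below both female WT libraries. On the log2 scale KO differed from WT by 0.07 in males and -0.11 in females, where libraries of a group differed by a pooled SD of 0.13. These ratios are of CPM and not scaled by gene length, so they compare libraries and not the genes. In males the value was -0.085 without male_KO1 and 0.23 without male_KO2. As mean log2 CPM, where each member counts alike, KO and WT differed more in both sexes, as given in the last section.

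Single pairs behaved unlike each other. Dnajb1 over Dnajb2 was 1.15 and 1.49 in male WT, 1.71 and 2.16 in male KO, 2.34 and 1.77 in female WT and 1.39 and 1.31 in female KO. KO libraries were above WT in males and below WT in females without overlap, with log2 differences of 0.55 and -0.59 against a pooled SD of 0.23. How often ratios of other gene pairs separate in this way was not tested. Hspa1a and Hspa1b together over Hspa8 came to 0.0275 and 0.0348 in male WT, 0.0373 and 0.0516 in male KO, 0.0521 and 0.0900 in female WT and 0.0166 and 0.0755 in female KO, with a far wider pooled SD of 0.85. For this ratio KO was above WT in males without overlap, and the female groups overlapped. Hsp90aa1 over Hsp90ab1 stayed between 0.121 and 0.168, with the highest ratio in male_KO1. Groups overlapped in both sexes for Hsph1 over Hspa4, between 1.40 and 2.51, and for Dnaja1 over Dnaja2, between 0.902 and 1.62.

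**Figure D3:**
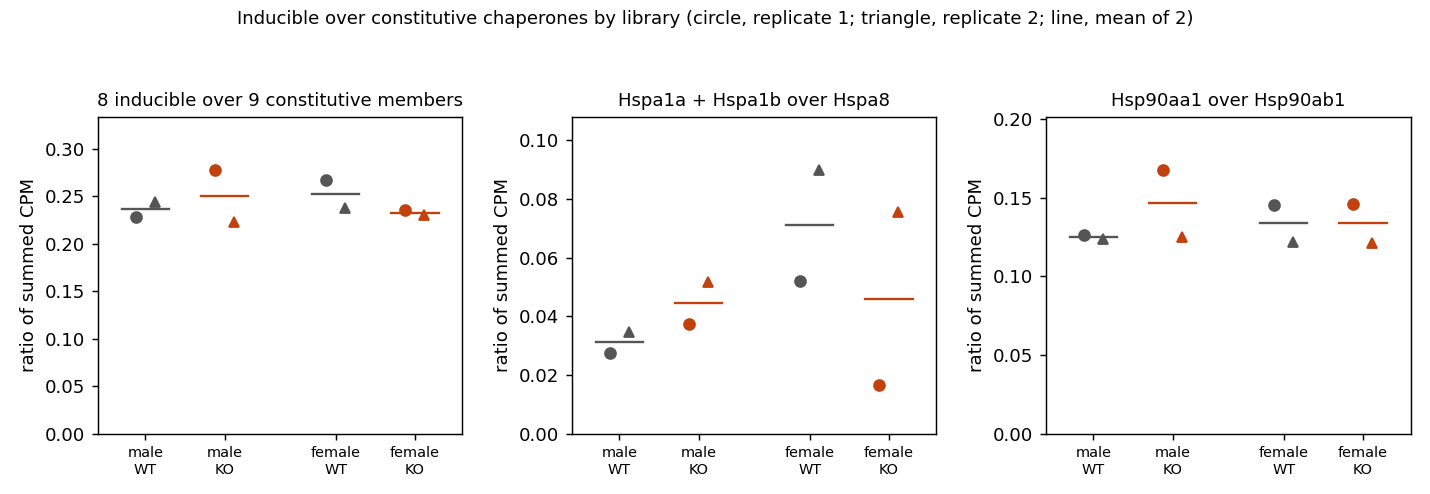
Ratio of summed CPM (vertical axes from 0) of inducible over constitutive members in each library by sex and genotype, for the lists of 8 and 9 members, for Hspa1a plus Hspa1b over Hspa8 and for Hsp90aa1 over Hsp90ab1, with circles for replicate 1, triangles for replicate 2 and lines for the mean of 2. The list ratio runs from 0.223 to 0.278 over the 8 libraries.

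Of the 10 members on the list for the ER, 8 had a positive log2 fold change in males (median 0.24) and 9 in females (median 0.22). Of all tested genes, 51.9% and 49.0% were positive. The list does not hold every member of the ER, as Dnajc16, named below, is not on it (-0.02 in males and 0.78 in females). By library, KO was above WT without overlap for 3 of the 10 in males and 2 in females, beside 14.5% and 14.2% of all genes, and 0 passed 5% by edgeR or DESeq2. Hspa5, the main Hsp70 of the ER, stood at 301 and 391 CPM in male WT, 261 and 413 in male KO, 305 and 249 in female WT and 226 and 309.8 in female KO, with log2 fold changes of -0.04 and -0.05. Hsp90b1, its Hsp90 neighbour, stood at 221 and 220.0 CPM in male WT, 213 and 278 in male KO, 215 and 207 in female WT and 213 and 222 in female KO. For these abundant ER chaperones the groups overlapped in both sexes. Dnajb14, a DnaJ protein anchored in the ER membrane, stood at 64.0 and 71.8 CPM in male WT, 120.4 and 91.6 in male KO, 84.6 and 65.1 in female WT and 115 and 78.4 in female KO, with KO above WT in males by 0.64 ± 0.26 on the log2 scale (0.43 without male_KO1). Its close relative Dnajb12 stood at 19.8 and 15.8 CPM in male WT, 29.4 and 24.8 in male KO, 21.3 and 21.3 in female WT and 10.4 and 32.3 in female KO, again above WT in males (0.61 ± 0.50), while the female KO libraries lay on either side of WT. The 16 tested gene models of the unfolded protein response, among them Xbp1, Atf4 and the disulfide isomerase Pdia4, had 8 of 16 positive in males and 3 of 16 in females, and 0 were called by either tool.

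Mitochondrial members were divided between both directions. Of 8, 3 were positive in males and 4 in females, with medians of -0.05 and -0.05 on the log2 scale. Hspd1 (Hsp60), the chamber in which imported proteins fold, stood at 84.5 and 93.8 CPM in male WT, 95.9 and 95.6 in male KO, 98.9 and 62.6 in female WT and 89.7 and 84.6 in female KO. Hspe1, the lid of that chamber, transcribed from the other side of the shared promoter, stood at 46.0 and 44.0 CPM in male WT, 73.9 and 29.6 in male KO, 52.6 and 56.0 in female WT and 70.2 and 40.6 in female KO. In both sexes Hspe1 was higher in the KO library of replicate 1 than in that of replicate 2. Hspa9 (mortalin), the motor that pulls proteins into the matrix, stood at 192 and 172 CPM in male WT, 128 and 215 in male KO, 178 and 77.9 in female WT and 137 and 159 in female KO, with a low value in female_WT2.

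Besides Hspb1, the small heat shock proteins were represented almost entirely by Hspb8, which stood at 356 and 396 CPM in male WT, 347 and 425 in male KO, 373 and 382 in female WT and 339 and 356 in female KO. Hspb6, known from muscle, stayed between 0.159 and 9.09 CPM. Hspb2 stayed between 0 and 0.878 CPM, and 30.2% of its exon bases also belong to the neighbouring crystallin gene Cryab. Of the 8 members known from testis, 4 were detected, and in those the sum stayed between 2.07 and 12.9 CPM per library. Among the testis members, Hspa1l has 71.9% of its exon bases in common with another gene model, and reads there were counted for both. The exchange factor Hspbp1 stood at 294 and 245 CPM in male WT, 246 and 254 in male KO, 285 and 319 in female WT and 216 and 279 in female KO, with female KO below WT at a log2 fold change of -0.29 ± 0.19 (-0.11 without female_KO1). The 5 DnaJ proteins of ribosomes, splicing and histones were positive in 4 cases in males and 1 in females. The clathrin-uncoating Dnajc6 (auxilin) and the endosomal Dnajc13 had log2 fold changes of 0.23 and 0.42 in males and of 0.18 and 0.29 in females.

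Among members with at least 5 CPM, the widest shifts without overlap in males were those of Hspbap1 and Hspa12a, followed by Hspa1a, Hspa12b, Dnajb14 and Dnajb12. Hspbap1 stood at 23.0 and 15.5 CPM in male WT, 6.76 and 9.26 in male KO, 16.3 and 14.1 in female WT and 16.9 and 10.2 in female KO. It was lower in both male KO libraries, with a log2 fold change of -1.26 ± 0.39, and its female groups overlapped. Hspa12a, a distant Hsp70 relative found in brain, stood at 77.6 and 64.6 CPM in male WT, 195 and 100.4 in male KO, 89.4 and 73.5 in female WT and 120.1 and 86.0 in female KO. Male KO was above male WT by 1.05 ± 0.34, with by far the highest value in male_KO1, and by 0.50 without male_KO1. Read beside it, all 9 listed markers of myelinated afferents had a positive log2 fold change in males (median 3.38). Positive in males were also 5 of 5 tested non-peptidergic markers (median 3.38), 7 of 8 peptidergic (1.44) and 9 of 12 glial (1.15). Among immune markers 4 of 8 were positive, and 0 of 4 of red blood cells and 0 of 8 of C-LTMRs. The myelinated markers summed to 1391 and 1205 CPM in male WT and 5919 and 2018 in male KO. In females they summed to 1074 and 996 CPM in WT and 1425 and 1145 in KO. The neurofilament Nefh stood at 104 and 72.4 CPM in male WT and 1550.1 and 296 in male KO, none of the 9 was at 0 in the male libraries, and the part of these cells in the Hspa12a values was not tested. Its relative Hspa12b, known from endothelium, stood at 7.74 and 11.7 CPM in male WT, 19.0 and 12.3 in male KO, 11.3 and 13.1 in female WT and 16.7 and 11.4 in female KO, above WT in males by 0.68 ± 0.39 and by 0.33 without male_KO1. The 13 vascular markers summed to 357 and 455 CPM in male WT and 483 and 365 in male KO, which overlap, 11 of the 12 tested had a positive log2 fold change in males, and their part in the Hspa12b values was not tested.

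In females the widest shift at that level was that of Hspa14, an Hsp70 of the ribosome-associated complex. Hspa14 (ENSMUSG00000109865, chr2:3488850-3512814, minus strand) stood at 34.4 and 36.3 CPM in male WT, 25.0 and 27.6 in male KO, 23.9 and 13.3 in female WT and 36.0 and 42.2 in female KO. KO libraries were below WT in males and above WT in females. The log2 fold change was 1.07 ± 0.32 in females (0.71 without female_WT2 and 1.55 without female_WT1), with an adjusted p of 0.0926 by DESeq2, and -0.43 ± 0.31 in males, and the difference between the sexes was -1.50 ± 0.45, with an adjusted p of 0.98 by edgeR. A second gene model shares 7.91% of its exon bases, and reads there were counted for both. Hspa2, an Hsp70 best known from male germ cells, stood at 62.1 and 61.4 CPM in male WT, 38.4 and 61.5 in male KO, 45.4 and 38.7 in female WT and 62.8 and 69.3 in female KO, with KO above WT in females by 0.65 ± 0.26. Dnajc16, an ER membrane protein, stood at 3.62 and 3.66 CPM in female WT and 6.65 and 5.84 in female KO, beside 5.64 and 6.29 in male WT and 6.15 and 5.59 in male KO. Its female WT values were the low ones, and the female shift was 0.78 ± 0.41 on the log2 scale. Dnajc4 stood at 25.9 and 18.0 CPM in male WT, 36.3 and 22.0 in male KO, 23.4 and 29.3 in female WT and 18.8 and 17.5 in female KO, below WT in females at a log2 fold change of -0.54 ± 0.34.

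**Figure D4:**
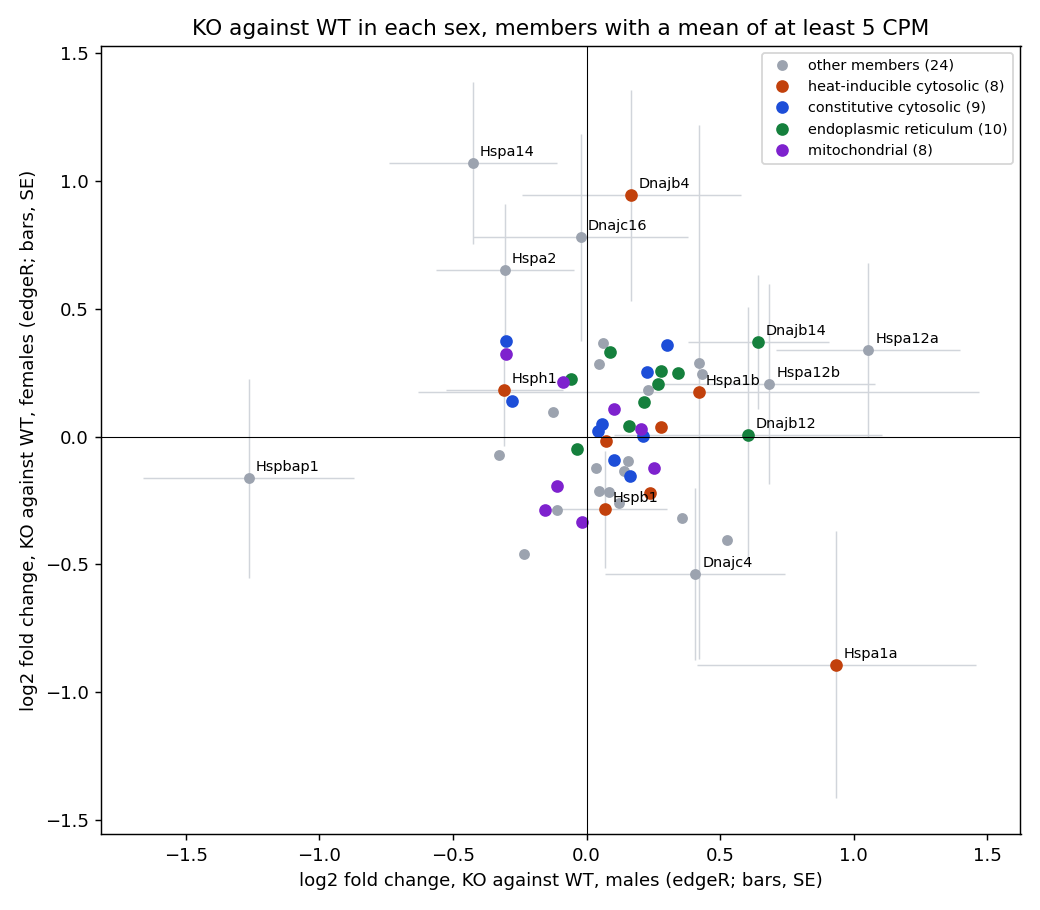
Log2 fold change of KO against WT in males (horizontal axis) and in females (vertical axis) for the 59 members with a mean of at least 5 CPM, coloured by class, with edgeR standard errors as bars for the labelled members. Most members lie near 0 on both axes, Hspa1a lies at 0.93 in males and -0.89 in females, Hspa14 at -0.43 and 1.07, and Hspbap1 at -1.26 in males.

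KO and WT libraries separated in both sexes for 6 members, each time in opposite directions. They were Hspa1a and Dnajc21 (a ribosome assembly factor) with Hspg2, higher in male KO and lower in female KO, and Dnajb2, Hspa14 and Dnajc22, lower in male KO and higher in female KO. Hspg2 and Dnajc22 had means under 5 CPM. Over all tested genes 4.77% showed such opposite separation, and 3.92% separated in the same direction in both sexes, which 0 of the 69 members did. In one sex at a time, 14 members were above and 7 below WT in males, and 12 above and 11 below in females, where 29.1% and 29.3% of all genes separated in either direction. The test of the difference between the sexes called 0 members and 0 genes (0%) by edgeR at 5%, and 0 members by DESeq2, which called 1.53% of genes. At an unadjusted p below 0.05, edgeR gave 5 members against 4.73% of all genes, with a smallest adjusted p of 0.98 among members.

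Over both sexes together, 0 members passed by edgeR, where 1 gene (0.00454%) did, and 0 by DESeq2, which called 0.76% of genes. At an unadjusted p below 0.05 there were 3 members against 3.56% of all genes. For 0 members were all 4 KO libraries on one side of all 4 WT libraries, where KO was above for 0.936% and below for 0.895% of all genes. Hspa4l, a constitutive relative of Hsph1, came close, at 116 and 139 CPM in male WT, 130.1 and 184 in male KO, 128 and 134 in female WT and 175 and 162 in female KO. It was singled out after its values were seen. Its log2 fold change over both sexes was 0.33 ± 0.14, and it was 1 of the 3 members past an unadjusted p of 0.05.

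Between WT males and WT females, 0 members passed 5% by edgeR or DESeq2, where 0 genes (0%) passed by edgeR and 1.06% by DESeq2. At an unadjusted p below 0.05 edgeR gave 3 members against 4.44% of all genes. Male libraries were above female libraries for 11 members and below for 15, against 18.8% and 19.6% of all genes. Both Hsph1 and Dnajb2 were higher in both WT males than in both WT females, and Hspa1a was lower in both.

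The wider chaperone network was read in the same way. Of 45 further genes fixed as a list (heat shock factors, Bag exchange factors, Hsp90 co-chaperones and the CCT chaperonin) 44 were tested, and 0 passed 5% by edgeR or DESeq2 in either sex. In males 16 were positive and 28 negative, with a median log2 fold change of -0.09, and in females 27 and 17, with a median of 0.06. At an unadjusted p below 0.05 edgeR gave 1 of them in males, the glutamine-rich co-chaperone Sgtb, and 0 in females. Hsf1 itself stood at 72.2 and 82.3 CPM in male WT, 44.6 and 72.1 in male KO, 52.8 and 67.7 in female WT and 63.8 and 70.2 in female KO. Both male KO libraries were below male WT and the female groups overlapped. The authors' deposited tables of genes past 5% list 150 genes in males and 13 in females, and 0 of the 75 members are in either table.

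Several members have long stretches of near-identical coding sequence in common with a second gene, and counts fell on both genes. Whether the counts on a copy came from transcripts of the member was not tested. Hspb1 (chr5:135887919-135889563) has a processed pseudogene, Hsp25-ps1 (chr13:45078498-45079127), identical to its coding sequence at 626 of 630 bases. The coding stretch from base 460 to base 609 holds 3 of the 4 differences, in capitals.
Hspb1: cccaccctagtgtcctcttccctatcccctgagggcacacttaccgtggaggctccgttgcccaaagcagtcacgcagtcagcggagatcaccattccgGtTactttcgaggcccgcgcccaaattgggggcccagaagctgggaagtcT
Hsp25-ps1: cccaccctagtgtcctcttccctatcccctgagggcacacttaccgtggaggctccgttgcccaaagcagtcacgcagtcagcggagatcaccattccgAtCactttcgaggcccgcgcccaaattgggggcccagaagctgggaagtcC
Of the counts of this pair, between 57.0% and 59.6% were assigned to the pseudogene in the 8 libraries. Hspb1 and Hsp25-ps1 together came to 722 and 624 CPM in male WT, 785 and 618 in male KO, 954 and 737 in female WT and 596 and 772 in female KO. The level of Hspb1 is therefore uncertain by the counts on its copy, while the split hardly moved between libraries. For Hspd1 the pseudogene Hspd1-ps3 (1704 of 1722 bases identical) took 39.1% to 48.6% of the pair's counts. For Dnajc19, part of the mitochondrial import motor, the pseudogene Dnajc19-ps took 52.9% to 64.2%. It aligned to 281 of the 474 coding bases of Dnajc19, with 278 identical. For Hspa9 the more diverged Hspa9-ps1 took 1.05% to 2.15%.

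Hspa1a and Hspa1b are near-identical too, with 99.4% identity of their coding sequences, against 74.4% between Hspa1a and Hspa8. Hspa1b took between 18.0% and 56.4% of the pair's counts, a wider range than for the pseudogenes, and 19.0% of the exon bases of Hspa1a also belong to another gene model. The pair's summed level was 13.9 and 17.9 CPM in male WT, 18.6 and 35.7 in male KO, 21.7 and 37.5 in female WT and 8.81 and 34.7 in female KO. In the sum male KO stayed above male WT, while the female groups overlapped.

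**Figure D5:**
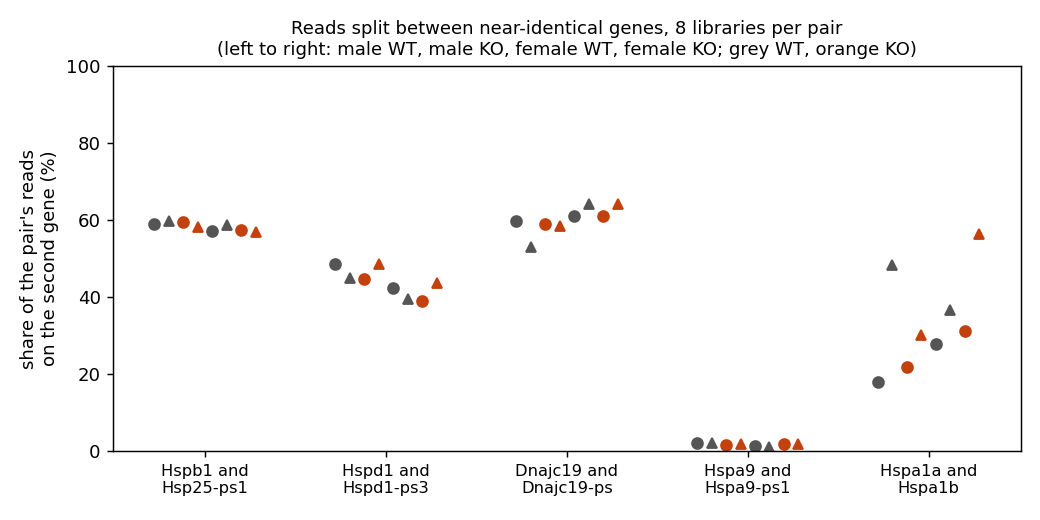
Share of a pair's counts assigned to the second gene of the pair (vertical axis, percent) in the 8 libraries, for 4 genes with a pseudogene copy and for Hspa1a with Hspa1b, in grey for WT and orange for KO, with circles for replicate 1 and triangles for replicate 2. The share on Hsp25-ps1 keeps to 57.0% to 59.6%, and that on Hspa1b runs from 18.0% to 56.4%.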

How the data were processed

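The count file deposited by the authors holds whole-number read counts per gene, assigned by featureCounts 1.6.1 to Ensembl GRCm38 exons (release 97) without regard to strand, and a read overlapping several genes was counted in each, per the file headers. File names in the header speak of uniquely aligned reads, and which aligner was used is not stated in them. The authors' deposited tables hold a mean of normalized counts (a signal), log2 fold changes with standard errors, a test score and p-values for genes past 5% only. The submitters' processing notes name DESeq2 1.14.1, Subread 1.6.4 and bcl2fastq 2.17.1.14. Per the labels' protocols, cDNA came from 500 pg of RNA (SMART-Seq v4, 13 cycles, then 12 cycles for the library) without molecular identifiers, so counts include PCR copies and floors of 3 counts cover counting error only.

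Symbols came from GENCODE M21 for 55394 of 55573 identifiers. Pseudogene symbols ending in -ps were left out with or without a number after it. Counts were filtered (filterByExpr), scaled (TMM) and tested in R 4.3.3 with edgeR 4.0.16 (robust quasi-likelihood, two-sided, Benjamini-Hochberg over 22013 genes), in 1 fit of 4 groups over 8 libraries with 4 residual degrees of freedom. An additive model of sex and genotype served both sexes together. Alternatives were DESeq2 1.42.0, RLE scaling, no filter, the 2 groups alone, a replicate block, each library left out, and sums against mean log2 CPM (prior count 2). Promoters came from RefSeq (GRCm38.p6), and copies were aligned with blastn 2.17.0. The fit was also run on simulated data with less spread between libraries than the median tested gene has here. That run gives no measure of power in these data.

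Members named are the 8 inducible genes, 5 constitutive counterparts, the 8 highest per kilobase in WT, up to 6 per sex with at least 5 CPM and no overlap by size of change, and any past 5%. Other members appear in counts, or as an example of their class chosen with values known. The members and lists were chosen with earlier results of these data known.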

Additional observations from a re-analysis of the deposited data

How the results depend on the processing

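In each of the 5 comparisons, 0 members passed 5% under RLE scaling, without the filter, with DESeq2 on all libraries, with the replicate block and without each library in turn, and 0 with the 2 groups alone in the 3 comparisons of 2 groups. The members' median log2 fold change in males was 0.10 and ran from 0.018 (without male_WT1) to 0.14 over the libraries left out, and in females from -0.00092 to 0.08 around 0.04. Inducible minus constitutive ran from -0.085 (without male_KO1) to 0.23 (without male_KO2) around 0.07 in males and from -0.20 to -0.03 around -0.11 in females. As mean log2 CPM it was 0.18 in males and -0.18 in females. As a ratio of summed CPM it was 0.10 and -0.05 without Hspb1. With Hsp25-ps1 added to Hspb1, chosen after seeing the data, the ratio of summed CPM gave 0.05 and -0.18. With 1 library left in a group, that library is assumed to vary like the other groups.

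Directions that turned when 1 library was left out were, in males, those of Hspa1b (-0.47 to 1.54), Hspb1 (-0.086 to 0.19), Dnaja1 (-0.034 to 0.15), Dnajb4 (-0.55 to 0.62), Hspa8 (-0.049 to 0.44), Hsp90ab1 (-0.069 to 0.16), Dnaja2 (-0.19 to 0.43), Hspb8 (-0.14 to 0.18), Hspbp1 (-0.26 to 0.023), Hspa5 (-0.43 to 0.26), Hsp90b1 (-0.068 to 0.34) and Dnajc16 (-0.10 to 0.026). In females they were those of Hspa1b (-1.86 to 0.99), Hsp90aa1 (-0.20 to 0.32), Hsph1 (-0.050 to 0.38), Dnaja1 (-0.20 to 0.19), Hsp90ab1 (-0.081 to 0.19), Hspa4 (-0.064 to 0.31), Dnaja2 (-0.51 to 0.13), Hspa5 (-0.30 to 0.16), Hspbap1 (-0.57 to 0.15), Hspa12b (-0.092 to 0.45) and Dnajb12 (-1.03 to 0.60). Hspa1a ran from 0.47 to 1.27 in males and from -1.70 to -0.38 in females. Its KO and WT libraries did not overlap in either sex, so leaving out 1 library could hardly turn its direction. The replicate numbers are not stated to mark shared animals, and same-numbered WT and KO libraries deviated together with r = 0.15 in males and 0.03 in females over 11857 genes. With the replicate block, Hspa1b in females turned to -0.31 and Dnajb12 in females to -0.21, and the counts of members past 5% stayed at 0. The cause was not tested for any of these. With 2 libraries a group, the spread between libraries and not the depth sets the precision of abundant members.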
